A study of Caenorhabditis elegans with 9 samples.

Results

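Batch 3 is the third of 3 biological replicates in an RNA-seq series of *C. elegans* hermaphrodites, which the study describes as adults. It was compared with batches 1 and 2 inside each genotype. Its members are the 3 libraries whose column names end in b3, of 9 libraries in all, and the other 6 libraries are batches 1 and 2. Each batch holds 1 library of each genotype: double mutants that carry *daf-1*(m40) and the deletion *daf-3*(mgDf90), called *daf-1*; *daf-3*, single mutants with *daf-1*(m40) alone, called *daf-1*, and N2, the wild type. *daf-1* encodes the type I receptor of the DAF-7 TGFβ pathway and *daf-3* encodes the co-SMAD that the pathway inhibits. The labels give for all 9 libraries 250 mg of worms synchronized as L1 larvae, growth at 16 °C up to L4 and then 25 h at 25 °C, while the methods of the study give 24 h. The sources used here do not say which steps the libraries of a batch shared, and the names b1 to b3 are taken only as replicate numbers. Of 40313 entries in the deposited table, 13907 name a gene and reach 0.5 FPKM (fragments scaled by transcript length and by the number of mapped fragments) in at least 2 of the 9 libraries, and these were tested. They are 11996 genes with an entry of their own, 1863 entries that join several genes and 48 entries with a repeated name. The minimum was reached only in batch 3 by 112 entries and only in batches 1 and 2 by 260. At its border lie F23D12.1, with a second highest value of 0.500286 FPKM, and *lgc-9*, with 0.499986 FPKM.

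Several programs of the worm run on developmental time. In each larval stage the epidermis switches on collagens, cuticlins, apical matrix proteins and hedgehog-related proteins before a molt, and an adult collagen such as *col-19* comes on after the last one. In the hermaphrodite gonad sperm are made around the last larval stage and oocytes afterwards, and the adult intestine makes vitellogenin yolk proteins for them. Embryos are held in the uterus of gravid adults, and inside them the first cuticle, the pharynx, muscles and ciliated neurons are built, so RNA of gravid adults also holds embryonic RNA. In RNA of whole animals, fewer cells of a type and less RNA per cell cannot be told apart.

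The *daf-1*; *daf-3* library of batch 3 is the one that the study removed from its own comparisons as an outlier, so list medians are also given without it. List counts are given without it where they then differ by over 1.5 times and by at least 2 members. Its 10 highest entries held 10.7% of its FPKM total, against 4.83 to 6.57% in the other 8 libraries, and Y53H1C.11 was listed at 43891.5 FPKM in it and at 0 in the others. FPKM totals were lowest in batch 3 in each genotype, at 857271 against 954992 and 959313 in *daf-1*; *daf-3*, 763349 against 805453 and 841396 in *daf-1*, and 748170 against 831015 and 851264 in N2. Between 16063 and 17196 entries per library were above 0. Read counts were not used here, so the spread between libraries is the only measure of precision. The labelled deletion was seen in each batch, since *daf-3* was measured at 0 FPKM in batch 3 against 0 and 0.0147 FPKM in batches 1 and 2 of *daf-1*; *daf-3*. In *daf-1* it was at 20.6 FPKM in batch 3 against 19.9 and 22.3 FPKM, and in N2 it was 22.5 against 19.2 and 18.8 FPKM. Markers of the labelled animals were present on both sides. The oocyte receptor gene *rme-2* lay between 192 and 271 FPKM in batch 3 and between 213 and 339 FPKM in batches 1 and 2, the eggshell gene *cbd-1* between 576 and 715 FPKM and between 596 and 916 FPKM, and the intestinal factor *elt-2* between 9.21 and 12.3 FPKM and between 6.93 and 12.1 FPKM. The oocyte gene *oma-1* and the eggshell gene *chs-1* occur only in joined entries and were not read.

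The batch 3 difference ran in the same direction in the 3 genotypes for many genes, but few entries passed the thresholds of the study, a change of at least 2-fold and an adjusted p below 0.05. On log2(FPKM + 0.25), with genotype as a block in limma, 2 entries (0.0144% of those tested) were DEGs higher in batch 3 and 0 (0%) were lower. At an unadjusted p below 0.05 there were 4618 entries, of which 2568 were higher and 2050 lower. Of the entries that missed the threshold, the smallest adjusted p was 0.0735, and 856 higher and 37 lower entries of at least 2-fold lay below 0.1. The count of DEGs depended on single libraries and on the scale: it was 1225 (1173 higher, 52 lower) without *daf-1* batch 3, 862 (858 higher, 4 lower) when each library was scaled to the same FPKM total, 5 without N2 batch 3, and 0 among entries with a mean of at least 5 FPKM. Without the *daf-1*; *daf-3* library of batch 3 it was 7, all higher (0.0503%), with 1960 entries at an unadjusted p below 0.05. Batch 2 against batch 1 gave 1 DEG (0.00719%), T21B4.21, and 536 entries at an unadjusted p below 0.05.

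A count that needs no model was added after the data had been seen. In 2424 entries (17.4%) the batch 3 library lay above both other libraries of its genotype in all 3 genotypes, and in 2462 entries (17.7%) it lay below both. The same counts were 544 (3.91%) above and 459 (3.3%) below for batch 2, and 1450 (10.4%) above and 1255 (9.02%) below for batch 1. Equal FPKM totals turned the split for batch 3 to 3788 above (27.2%) and 527 below (3.79%), and moved the median log2 difference over all entries to 0.10, against −0.03 as deposited, so directions of small differences are relative to the scale. With N2 and *daf-1* only, 2783 entries (20%) lay above and 3139 (22.6%) below.

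The sizes differed between genotypes. The SD over entries of the log2 difference between batch 3 and the mean of batches 1 and 2 was 1.03 in *daf-1*; *daf-3*, 0.543 in *daf-1* and 0.639 in N2. At least 2-fold higher in batch 3 were 2400 entries in *daf-1*; *daf-3*, 271 in *daf-1* and 889 in N2, and at least 2-fold lower were 630, 212 and 243 entries in that order. Over entries, which are not independent and share each library's scale, the differences of *daf-1*; *daf-3* and of N2 had Pearson's r = 0.52 and Spearman's rho = 0.649, with the same sign in 78.6%. Those of *daf-1* and N2 had r = 0.221 with the same sign in 69.9%, and those of *daf-1*; *daf-3* and *daf-1* had r = 0.262 with the same sign in 68.8%. For batch 2 minus batch 1 the r values of these 3 pairs of genotypes were −0.027, 0.125 and 0.0371. In the tests within a genotype, 1 library stands against 2 and is assumed to vary like the pairs of batches 1 and 2. They gave 1711 higher (12.3%) and 238 lower (1.71%) DEGs in *daf-1*; *daf-3*, 7 higher (0.0503%) and 4 lower (0.0288%) in *daf-1*, and 7 higher (0.0503%) and 3 lower (0.0216%) in N2. Several of the higher DEGs in *daf-1* and in N2, such as F58D5.10, were listed at 0 in all libraries of batches 1 and 2. They reached the FPKM minimum only in batch 3, so they entered these tests through the side where they are high. The unadjusted p was below 0.05 for 5412, 327 and 1677 entries in the same order of genotypes. The test of the difference itself, the interaction of genotype and batch 3, called 6 entries (0.0431%), and 1870 had an unadjusted p below 0.05.

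**Figure D1:**
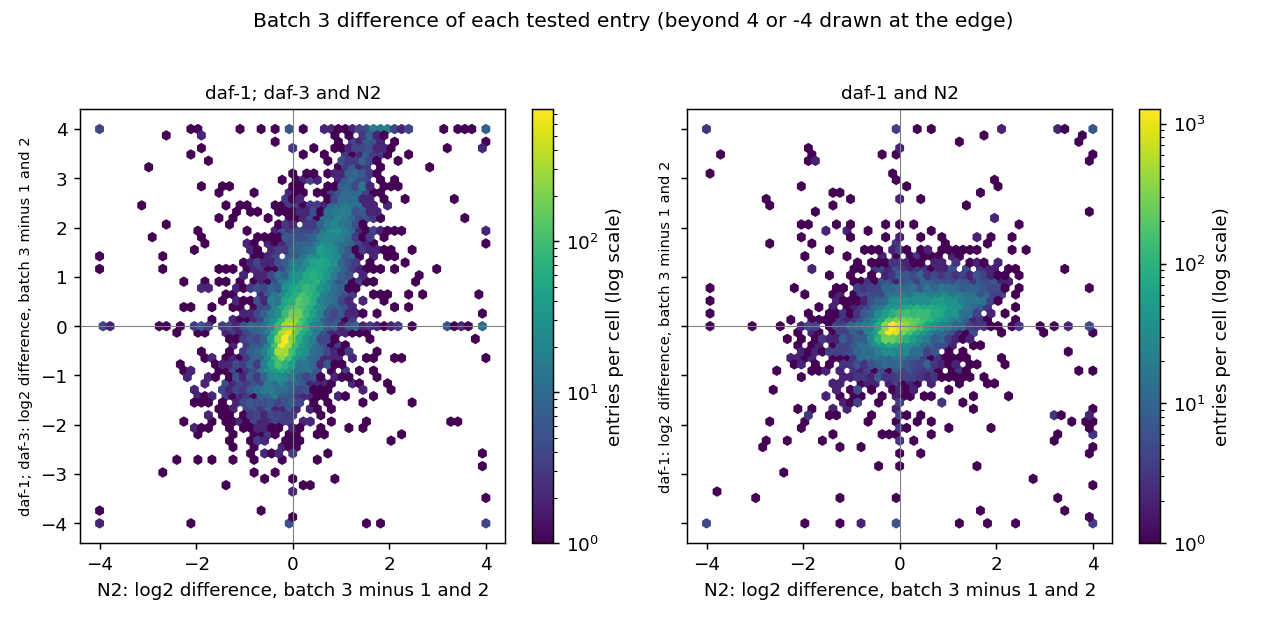
Log2 difference of each of the 13907 tested entries between batch 3 and the mean of batches 1 and 2, in *daf-1*; *daf-3* (left) and in *daf-1* (right) on the vertical axis and in N2 on the horizontal axis, coloured by the number of entries per cell. The cloud of *daf-1*; *daf-3* against N2 is steep and elongated (r = 0.52), and that of *daf-1* against N2 is flat (r = 0.221).

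Both DEGs are short non-coding RNAs that were listed at 0 in all 6 libraries of batches 1 and 2. They reached the FPKM minimum only in batch 3, so they entered the test through the side where they are high. The 7 DEGs found without the *daf-1*; *daf-3* library of batch 3 also reached this minimum only in batch 3. Not all of these 7 are annotated as non-coding RNAs. T21H3.7 (V: 1172769 to 1172909, 141 bases) was at 4.03, 3.21 and 2.97 FPKM in batch 3 of *daf-1*; *daf-3*, *daf-1* and N2. T14B4.14 (II: 6712544 to 6712692, 149 bases) was at 2.86, 2.38 and 4.33 FPKM in those libraries. No fold change is given against 0. T21H3.7 overlaps *ptr-16*, a patched-related gene on the same strand, and T21H3.10 on the other, and T14B4.14 overlaps T14B4.19 on the other strand. The sources used here do not say whether counting used strand, so reads of overlapping genes cannot be told apart. *ptr-16* itself was measured at 3.76 FPKM in batch 3 against 0.567 and 0.645 FPKM in batches 1 and 2 of *daf-1*; *daf-3*, 3.53 against 1.97 and 2.82 FPKM in *daf-1*, and 3.34 against 0.997 and 1.42 FPKM in N2. It was highest in batch 3 in each genotype, with a log2 difference of 1.36 ± 0.31 (SE) and an adjusted p of 0.0735. None of the 46 gene lists described next held a DEG of the 9-library test, nor a DEG within *daf-1* or within N2, so their members are given by values, by the count of genes at a batch 3 extreme and by the DEGs within *daf-1*; *daf-3*. Some list members also reached the FPKM minimum only in batch 3 and entered through that side. They are 2 hedgehog-related or patched-related genes, and 1 each of the cuticlins, sensory cilia and epidermal antimicrobial peptides. The C-type lectins and the F-box and MATH-BTB genes hold 1 each as well.

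Genes of the molting cycle were higher in batch 3. Of 44 tested members of the list of molting matrix proteins and regulators, the batch 3 library was the highest of its genotype in all 3 genotypes for 30 and the lowest for 1, against 17.4% and 17.7% of all entries. The median log2 difference was 0.85 over the genotypes, with 1.76 in *daf-1*; *daf-3*, 0.22 in *daf-1* and 0.66 in N2, and 0.37 without the *daf-1*; *daf-3* library of batch 3, where all entries had −0.03 in both fits. Without that library 31 members were highest and 3 lowest in the other 2 genotypes. Within *daf-1*; *daf-3*, 28 members rose and 0 fell. Of all entries 12.3% rose and 1.71% fell within that genotype, the background to this count in every list. *osm-8* (II: 7604196 to 7605406), a mucin-like gene of the epidermis, was measured at 15 FPKM in batch 3 against 0.882 and 1.16 FPKM in batches 1 and 2 of *daf-1*; *daf-3*. The *daf-1* values were 13.5 FPKM in batch 3 against 8.61 and 9.62 FPKM, and those of N2 were 12.3 against 4.23 and 3.69 FPKM. The 3 batch 3 values lie close together and above the 6 others, which differ by genotype. Its log2 difference was 1.91 ± 0.46 (SE, adjusted p = 0.0735), and 1.07 without the *daf-1*; *daf-3* library of batch 3.

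*acn-1* (X: 5092481 to 5097067), a homolog of angiotensin-converting enzyme that is needed for molting, was at 38.6 FPKM in batch 3 against 6.03 and 6.3 FPKM in batches 1 and 2 of *daf-1*; *daf-3*, 30.4 against 23 and 27.4 FPKM in *daf-1*, and 35.9 against 16.8 and 18.8 FPKM in N2. *bed-3* (IV: 9916524 to 9921967), a zinc-finger factor of the molting cycle, was at 12.8 FPKM in batch 3 against 3.31 and 2.89 FPKM in batches 1 and 2 of *daf-1*; *daf-3*. Its level in *daf-1* was 10.3 FPKM in batch 3 against 7.04 and 9.1 FPKM, and in N2 it was 10.2 against 4.11 and 5.36 FPKM. In both genes, as in *osm-8*, batch 3 was highest in every genotype, and the gap was widest in *daf-1*; *daf-3* and narrowest in *daf-1*. *noah-1*, an apical matrix protein of larvae and embryos, was at 89.6 FPKM in batch 3 against 27 and 31.7 FPKM in batches 1 and 2 of *daf-1*; *daf-3*, 76.8 against 71.8 and 71 FPKM in *daf-1*, and 109 against 81.1 and 66.9 FPKM in N2. The molting gene *mlt-10* occurs only in a joined entry and was not read. *nhr-23* (I: 7214745 to 7221299), the nuclear receptor that times the molts, showed no such gap, with 39.7 FPKM in batch 3 against 40.3 and 37.9 FPKM in batches 1 and 2 of *daf-1*; *daf-3*, 35.2 against 35.8 and 39.6 FPKM in *daf-1*, and 43.4 against 46.4 and 46.7 FPKM in N2, and its log2 difference was −0.06 ± 0.07 (SE, adjusted p = 0.564).

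Collagens did not move as one family. The 6 furrow collagens, which form the circumferential rings of the cuticle and are made early in each molting cycle, had a median log2 difference of 1.13, with 2.29 in *daf-1*; *daf-3*, 0.07 in *daf-1* and 0.87 in N2, and 0.48 without the *daf-1*; *daf-3* library of batch 3. Of them 2 were highest in batch 3 in all 3 genotypes, and 4 rose and 0 fell within *daf-1*; *daf-3*. *dpy-10* (II: 6710149 to 6712227) was at 65.5 FPKM in batch 3 against 12.8 and 16.5 FPKM in batches 1 and 2 of *daf-1*; *daf-3*, 59.7 against 47.4 and 57.9 FPKM in *daf-1*, and 69.5 against 37.7 and 39.4 FPKM in N2, so the batch 3 values of the genotypes differed little from each other. *dpy-7* (X: 7536467 to 7537792) was at 65.2 FPKM in batch 3 against 8.66 and 12.8 FPKM in batches 1 and 2 of *daf-1*; *daf-3*. The values in *daf-1* were 54.2 FPKM in batch 3 against 47.4 and 54.7 FPKM, and those of N2 were 66.9 against 30.5 and 37.5 FPKM. In *daf-1* its batch 3 value lay between the other 2. *dpy-9* was the exception among those named, with 0.874 FPKM in batch 3 against 1.09 and 1.28 FPKM in batches 1 and 2 of *daf-1*; *daf-3*, 1.65 against 1.61 and 1.59 FPKM in *daf-1*, and 1.69 against 2.02 and 2.01 FPKM in N2.

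Of 14 body-shape collagens, whose mutants have altered body form, 4 were highest and 2 lowest in batch 3 in all 3 genotypes, and their median was −0.42, which became 1.18 among members with a mean of at least 5 FPKM. Without the *daf-1*; *daf-3* library of batch 3 the median was −0.41, and 6 were lowest in N2 and *daf-1*. 3 of them, *sqt-3*, *dpy-14* and *dpy-17*, rose within *daf-1*; *daf-3*, and 0 fell. *sqt-3* (V: 12352745 to 12354320), a collagen made in embryos as well as in larvae, was at 1033 FPKM in batch 3 against 103 and 130.3 FPKM in batches 1 and 2 of *daf-1*; *daf-3*, 765 against 576 and 731 FPKM in *daf-1*, and 789.9 against 323 and 415 FPKM in N2. Batch 3 of *daf-1*; *daf-3*, the lowest genotype in the other batches, was the highest library of the 9. *dpy-17* (III: 5107330 to 5108492), whose product acts together with SQT-3, was at 529.8 FPKM in batch 3 against 76.5 and 89.5 FPKM in batches 1 and 2 of *daf-1*; *daf-3*. For *daf-1* it was 421 FPKM in batch 3 against 347 and 409 FPKM, and in N2 it was 444 against 229 and 276 FPKM. *bli-1*, a collagen of the struts of the adult cuticle, was lowest in batch 3 in each genotype, with 0.0898 FPKM in batch 3 against 0.253 and 0.478 FPKM in batches 1 and 2 of *daf-1*; *daf-3*, 0.503 against 1.11 and 1.02 FPKM in *daf-1*, and 0.114 against 0.29 and 0.256 FPKM in N2, all under 2 FPKM.

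The collagen *col-19* (X: 421707 to 422691), the standard marker of the adult epidermis, ran the other way and was at 731 FPKM in batch 3 against 1801 and 2991 FPKM in batches 1 and 2 of *daf-1*; *daf-3*, 1350.1 against 1744 and 1986 FPKM in *daf-1*, and 571 against 954 and 748 FPKM in N2. It was lowest in batch 3 in every genotype, with a log2 difference of −0.90 ± 0.25 (SE, adjusted p = 0.0735) and −0.51 without the *daf-1*; *daf-3* library of batch 3, and within *daf-1*; *daf-3* it fell by 1.67 on the log2 scale (adjusted p = 0.02). The median of the 3 tested adult collagens was −0.74, with −1.26 in *daf-1*; *daf-3*, −0.46 in *daf-1* and −0.56 in N2, and −0.51 without that library. Of these 3, *col-19* is the 1 that was lowest in all 3 genotypes. The others, *col-7* and *col-62*, were lowest in *daf-1* and N2 and lay between batches 1 and 2 in *daf-1*; *daf-3*, at levels under 7 FPKM in all 9 libraries. *col-20* (II: 4869670 to 4870791), of the col family, was at 1133 FPKM in batch 3 against 2594 and 3602 FPKM in batches 1 and 2 of *daf-1*; *daf-3*. *daf-1* had values of 1774 FPKM in batch 3 against 2179.8 and 2533 FPKM, and those of N2 were 853 against 1522 and 1214 FPKM. *col-80* (II: 10707201 to 10708287) was at 756 FPKM in batch 3 against 2362 and 3359 FPKM in batches 1 and 2 of *daf-1*; *daf-3*, 1047 against 1179 and 1627 FPKM in *daf-1*, and 582 against 980.4 and 1024 FPKM in N2. Like *col-19*, both were lowest in batch 3 in each genotype. Other col genes were high in batch 3. *col-74* (II: 5830374 to 5832022) was at 257 FPKM in batch 3 against 5.85 and 6.42 FPKM in batches 1 and 2 of *daf-1*; *daf-3*, 181 against 89.9 and 132 FPKM in *daf-1*, and 116 against 20.6 and 41.9 FPKM in N2, and in *daf-1*; *daf-3* its gap was 5.33 on the log2 scale (adjusted p = 0.00422). Over the 101 tested col genes, 33 were highest and 24 lowest in batch 3 in all 3 genotypes, the median was −0.09 (0.01 without the *daf-1*; *daf-3* library of batch 3 and 0.06 with equal FPKM totals), and within *daf-1*; *daf-3* 29 rose and 17 fell.

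**Figure D2:**
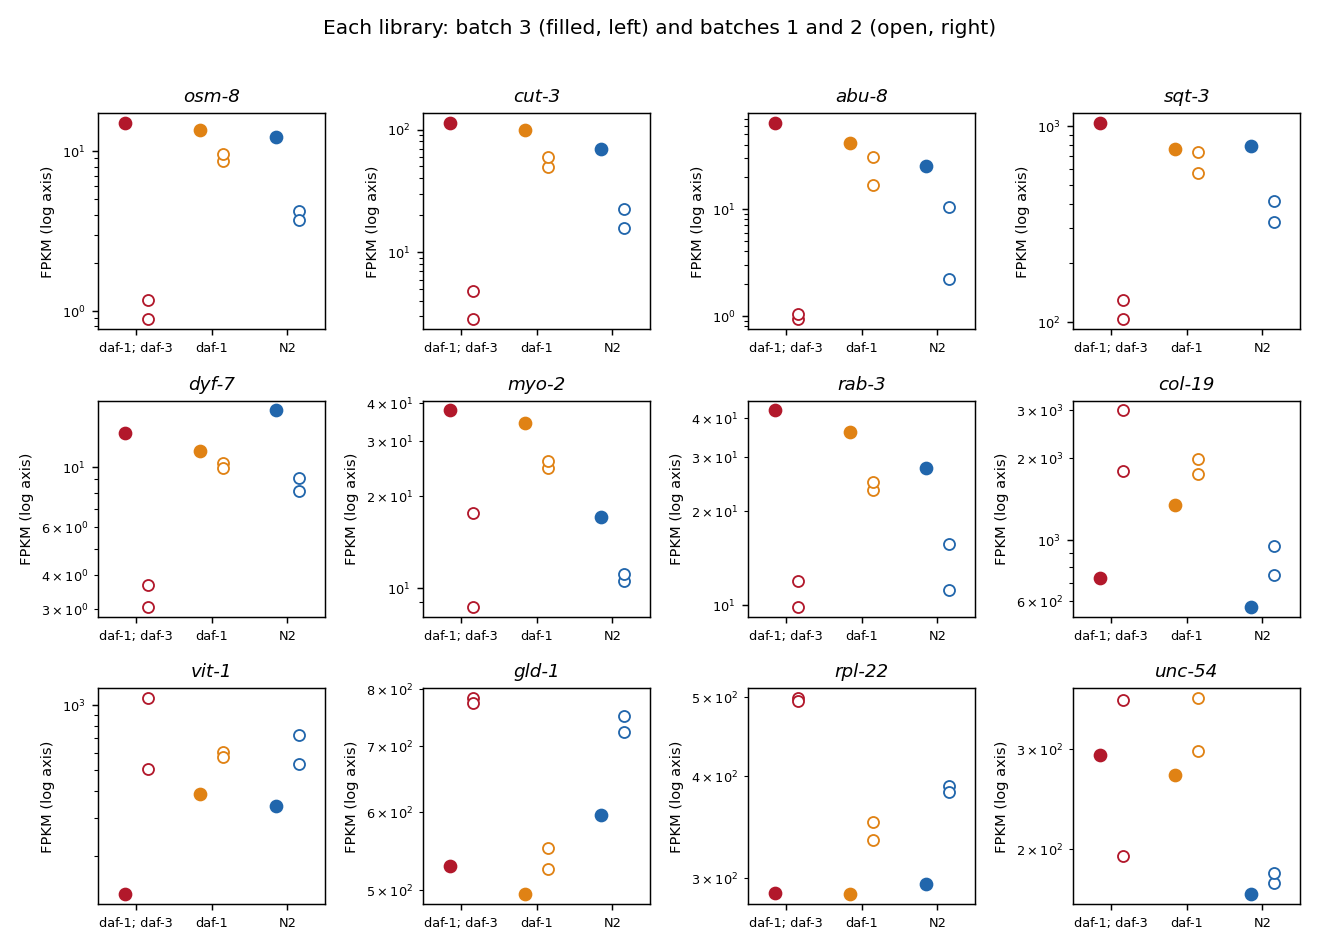
FPKM on a log axis of 12 genes in each of the 9 libraries, with batch 3 as a filled point on the left and batches 1 and 2 as open points on the right of each genotype. Batch 3 is highest in every genotype for *osm-8*, *cut-3*, *abu-8*, *sqt-3*, *dyf-7*, *myo-2* and *rab-3*, lowest in every genotype for *col-19*, *vit-1*, *gld-1* and *rpl-22*, and between or below the others for *unc-54*.

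Cuticlins, proteins of the insoluble cuticle layer and the alae, were higher in batch 3 with no exception among those at an extreme. Of 25 tested, 18 were highest and 0 lowest in all 3 genotypes, the median was 1.11 (0.69 without the *daf-1*; *daf-3* library of batch 3), and 20 rose and 0 fell within *daf-1*; *daf-3*. Among the 25, 1 reached the FPKM minimum only in batch 3, the side where it is high. *cut-3* (II: 8445169 to 8446831) was at 113 FPKM in batch 3 against 2.84 and 4.82 FPKM in batches 1 and 2 of *daf-1*; *daf-3*. In *daf-1* it was at 98.3 FPKM in batch 3 against 49.1 and 59.7 FPKM, and in N2 it was 68.8 against 15.9 and 22.6 FPKM. Its batch 3 values exceeded the other values in each genotype, and the adjusted p over the 9 libraries was 0.0735. Among 62 hedgehog-related and patched-related genes, epidermal families that also follow the molting cycle, 34 were highest and 4 lowest, the median was 0.75 (0.51 without that library), and within *daf-1*; *daf-3* 36 rose and 3 fell. Among the 62, 2 reached the FPKM minimum only in batch 3. *ptr-18* (II: 12965546 to 12978171) was at 15.6 FPKM in batch 3 against 1.58 and 2 FPKM in batches 1 and 2 of *daf-1*; *daf-3*, 14.5 against 8.67 and 10.5 FPKM in *daf-1*, and 13.6 against 4.02 and 5.28 FPKM in N2. *grd-4* (X: 8501222 to 8502288) went the other way, with 2.52 FPKM in batch 3 against 10.6 and 10.03 FPKM in batches 1 and 2 of *daf-1*; *daf-3*, 6.52 against 10.02 and 8.36 FPKM in *daf-1*, and 2.69 against 3.73 and 5.18 FPKM in N2, and its log2 difference within *daf-1*; *daf-3* was −1.93 (adjusted p = 0.00783).

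Stage regulators had no common direction. Of 8 tested heterochronic genes, which set the order of larval fates, 3 were highest and 1 lowest in all 3 genotypes, and their median was 0.04 with and without the *daf-1*; *daf-3* library of batch 3. *lin-28* (I: 8407630 to 8410804), an RNA-binding protein of early larvae, was at 80.9 FPKM in batch 3 against 72.7 and 63.7 FPKM in batches 1 and 2 of *daf-1*; *daf-3*. The *daf-1* values were 75 FPKM in batch 3 against 65.2 and 62.9 FPKM, and those of N2 were 87.1 against 75 and 75.6 FPKM. Its batch 3 values were the highest of each genotype, by a log2 difference of 0.23 ± 0.06 (SE, adjusted p = 0.0735). *hbl-1* (X: 5822142 to 5827755), a Hunchback-like factor also needed in embryos and the epidermis, was at 109 FPKM in batch 3 against 14.8 and 20.6 FPKM in batches 1 and 2 of *daf-1*; *daf-3*, 87.4 against 74.5 and 77.2 FPKM in *daf-1*, and 117 against 60.4 and 60.5 FPKM in N2, and it is the 1 of the 8 that rose within *daf-1*; *daf-3*, a share near the 12.3% of all entries, by 2.63 on the log2 scale (adjusted p = 0.00422). Astacin proteases had 9 highest and 0 lowest of 20 and a median of 0.23, which became 0.32 without the *daf-1*; *daf-3* library of batch 3 (2 lowest), −0.18 among members with a mean of at least 5 FPKM and −0.04 with quantile normalization. Genes of the vulva and egg-laying apparatus had 4 and 1 of 12 with a median of 0.36 (0.15 without that library), and seam and epidermal regulators 3 and 1 of 10 with a median of 0.40 (0.17 without it).

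Genes of the pharynx, the feeding organ, were higher in batch 3, and the abu and pqn list and the pharyngeal gland list had the largest medians of the 46. The abu and pqn genes encode glutamine-rich and asparagine-rich proteins, several of them of the pharyngeal cuticle, and the study counted some among genes of protein folding stress. Of 16 tested, 12 were highest and 0 lowest in batch 3 in all 3 genotypes, and 9 rose and 0 fell within *daf-1*; *daf-3*. The median was 1.90, with 3.42 in *daf-1*; *daf-3*, 0.45 in *daf-1* and 1.58 in N2, and 1.03 without the *daf-1*; *daf-3* library of batch 3. *abu-8* (V: 5192995 to 5194608) was at 63.9 FPKM in batch 3 against 0.924 and 1.05 FPKM in batches 1 and 2 of *daf-1*; *daf-3*, 41.5 against 16.7 and 30.8 FPKM in *daf-1*, and 25 against 2.19 and 10.4 FPKM in N2. *abu-11* (II: 192509 to 194558) was at 22.9 FPKM in batch 3 against 0.46 and 1.46 FPKM in batches 1 and 2 of *daf-1*; *daf-3*. Its level in *daf-1* was 24.6 FPKM in batch 3 against 11.1 and 17.2 FPKM, and in N2 it was 13.4 against 1.73 and 4.26 FPKM. *pqn-74* (IV: 13329507 to 13331406) was at 54.3 FPKM in batch 3 against 3.76 and 6.47 FPKM in batches 1 and 2 of *daf-1*; *daf-3*, 54.3 against 30.5 and 42.3 FPKM in *daf-1*, and 32 against 7.7 and 13.9 FPKM in N2. In these 3 genes *daf-1*; *daf-3* was the lowest genotype in batches 1 and 2, and in batch 3 it was close to or above *daf-1*. Members of the family are alike in sequence, so reads could be split between them. For ER stress outside this family, the list of the unfolded protein response had 0 highest and 1 lowest of 14 and a median of −0.11, which was −0.05 without the *daf-1*; *daf-3* library of batch 3, 0.04 with equal FPKM totals and 0.05 with quantile normalization. *hsp-4* (II: 7350112 to 7352645), the ER chaperone BiP and its usual reporter, was lowest in batch 3 in each genotype, at 112 FPKM in batch 3 against 214 and 198 FPKM in batches 1 and 2 of *daf-1*; *daf-3*, 144 against 179.5 and 159.7 FPKM in *daf-1*, and 164 against 206 and 199 FPKM in N2.

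Pharyngeal gland genes had 3 highest and 0 lowest of 7, with a median of 1.57 (0.75 without the *daf-1*; *daf-3* library of batch 3), and 3 rose and 0 fell within *daf-1*; *daf-3*. *phat-5* (V: 4121489 to 4122515), a secreted peptide gene of the glands, was at 40.2 FPKM in batch 3 against 0.586 and 1.07 FPKM in batches 1 and 2 of *daf-1*; *daf-3*. The values in *daf-1* were 30.1 FPKM in batch 3 against 12.8 and 17.1 FPKM, and those of N2 were 18.4 against 2.37 and 8.59 FPKM. Pharyngeal muscle genes had 7 highest and 1 lowest of 10 with a median of 0.77 (0.42 without that library), and 8 rose and 0 fell within *daf-1*; *daf-3*. *myo-2* (X: 12468061 to 12475348), the pharyngeal myosin heavy chain, was at 37.9 FPKM in batch 3 against 8.71 and 17.6 FPKM in batches 1 and 2 of *daf-1*; *daf-3*, 34.4 against 24.6 and 26 FPKM in *daf-1*, and 17 against 10.5 and 11.1 FPKM in N2. It was highest in batch 3 in every genotype, but the N2 value of batch 3 lay below both *daf-1* values of the other batches. *tnt-4* (V: 1989471 to 1992918), a pharyngeal troponin T, was at 82.2 FPKM in batch 3 against 13 and 25.6 FPKM in batches 1 and 2 of *daf-1*; *daf-3*. For *daf-1* it was 73.4 FPKM in batch 3 against 46.5 and 57.1 FPKM, and in N2 it was 41.5 against 16.3 and 24.4 FPKM. *pha-4* (V: 20753052 to 20760317), the FoxA factor of pharynx and gut identity, was at 48.3 FPKM in batch 3 against 22.1 and 20.5 FPKM in batches 1 and 2 of *daf-1*; *daf-3*, 41.5 against 37.7 and 42.9 FPKM in *daf-1*, and 48.1 against 32.5 and 35.3 FPKM in N2. In *daf-1* its batch 3 value lay between the other 2.

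Body wall muscle did not move as a whole, with 7 highest and 2 lowest of 33 and a median of 0.09 (0.03 without the *daf-1*; *daf-3* library of batch 3, with 5 lowest), and 4 rose and 0 fell within *daf-1*; *daf-3*, a share near that of all entries. *unc-54* (I: 14855901 to 14863482), its major myosin, was at 293 FPKM in batch 3 against 195 and 367 FPKM in batches 1 and 2 of *daf-1*; *daf-3*, 270.0 against 298 and 370.2 FPKM in *daf-1*, and 166 against 174 and 181 FPKM in N2, and the sides overlapped in *daf-1*; *daf-3*. *myo-3* (V: 12226817 to 12234343), its minor myosin, was at 31.6 FPKM in batch 3 against 4 and 9.28 FPKM in batches 1 and 2 of *daf-1*; *daf-3*. *daf-1* had values of 29.7 FPKM in batch 3 against 20.1 and 22.6 FPKM, and those of N2 were 18.2 against 10.6 and 10.5 FPKM. *tni-1*, a troponin I, was at 96 FPKM in batch 3 against 15.5 and 30.5 FPKM in batches 1 and 2 of *daf-1*; *daf-3*, 69.4 against 47.2 and 54.7 FPKM in *daf-1*, and 69.6 against 33.1 and 41.8 FPKM in N2. *myo-3* and *tni-1* were highest in batch 3 in each genotype, and *hlh-1*, the MyoD homolog that specifies this muscle in embryos, was not, with 17.4 FPKM in batch 3 against 8.84 and 9.9 FPKM in batches 1 and 2 of *daf-1*; *daf-3*, 14.4 against 14.5 and 15.4 FPKM in *daf-1*, and 17.9 against 14.5 and 15.4 FPKM in N2.

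Genes of sensory cilia and pan-neuronal genes were higher in batch 3. The sensory cilia list holds parts of the intraflagellar transport machinery and other proteins of ciliated sensory neurons. Of its 34 tested members, 25 were highest and 0 lowest in all 3 genotypes, and 23 rose and 0 fell within *daf-1*; *daf-3*. Among the 34, 1 reached the FPKM minimum only in batch 3. The median was 0.91, with 1.62 in *daf-1*; *daf-3*, 0.19 in *daf-1* and 0.84 in N2, and 0.52 without the *daf-1*; *daf-3* library of batch 3. *dyf-7* (X: 9698659 to 9701732), a matrix protein that anchors growing dendrites in the embryo, was at 13.3 FPKM in batch 3 against 3.05 and 3.67 FPKM in batches 1 and 2 of *daf-1*; *daf-3*. In *daf-1* it was at 11.5 FPKM in batch 3 against 10.3 and 9.87 FPKM, and in N2 it was 16.2 against 8.12 and 9.07 FPKM. *osm-5* (X: 2984263 to 2991478), an intraflagellar transport protein, was at 2 FPKM in batch 3 against 0.424 and 0.529 FPKM in batches 1 and 2 of *daf-1*; *daf-3*, 1.88 against 1.67 and 1.8 FPKM in *daf-1*, and 2.74 against 0.903 and 0.98 FPKM in N2. *klp-11* (IV: 8756735 to 8762066), a kinesin-II motor subunit, was at 24.9 FPKM in batch 3 against 5.78 and 7.07 FPKM in batches 1 and 2 of *daf-1*; *daf-3*. The *daf-1* values were 19.6 FPKM in batch 3 against 15.5 and 17 FPKM, and those of N2 were 21.9 against 11.8 and 14.5 FPKM. All 3 genes were highest in batch 3 in every genotype, with log2 differences within *daf-1*; *daf-3* of 1.91, 1.64 and 1.92 (adjusted p = 0.00469, 0.0157 and 0.00495 for the same genes).

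Pan-neuronal genes had 16 highest and 0 lowest of 26 and a median of 0.50 (0.31 without that library), and 8 rose and 0 fell within *daf-1*; *daf-3*. *rab-3* (II: 5721767 to 5727853), a synaptic vesicle GTPase, was at 42.3 FPKM in batch 3 against 9.88 and 11.9 FPKM in batches 1 and 2 of *daf-1*; *daf-3*, 36 against 23.4 and 24.8 FPKM in *daf-1*, and 27.5 against 11.2 and 15.8 FPKM in N2. It was highest in batch 3 of every genotype, by 1.18 ± 0.23 (SE) on the log2 scale with an adjusted p of 0.0735. *unc-64*, the syntaxin of the synapse, was at 50.5 FPKM in batch 3 against 26.2 and 30.8 FPKM in batches 1 and 2 of *daf-1*; *daf-3*. Its level in *daf-1* was 48.6 FPKM in batch 3 against 42 and 38.2 FPKM, and in N2 it was 41.6 against 27.9 and 31.1 FPKM. *snb-1* (V: 6655562 to 6656501), synaptobrevin, showed no gap, with 326 FPKM in batch 3 against 337 and 278 FPKM in batches 1 and 2 of *daf-1*; *daf-3*, 252 against 253 and 249 FPKM in *daf-1*, and 274 against 243 and 306 FPKM in N2. Of 62 neuropeptide genes 18 were highest and 1 lowest, with a median of 0.17 (0.10 without that library, with 4 lowest). With quantile normalization 5 neuropeptide genes were highest and 1 lowest, with a median of 0.06. Of all entries 13.8% were highest at that setting, with a median of −0.07. Of 16 genes of the somatic gonad 7 were highest and 2 lowest with a median of 0.25 (0.16 without it), and of 10 genes of coelomocytes and the excretory system 5 and 0 with a median of 0.21 (0.19 without it).

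**Figure D3:**
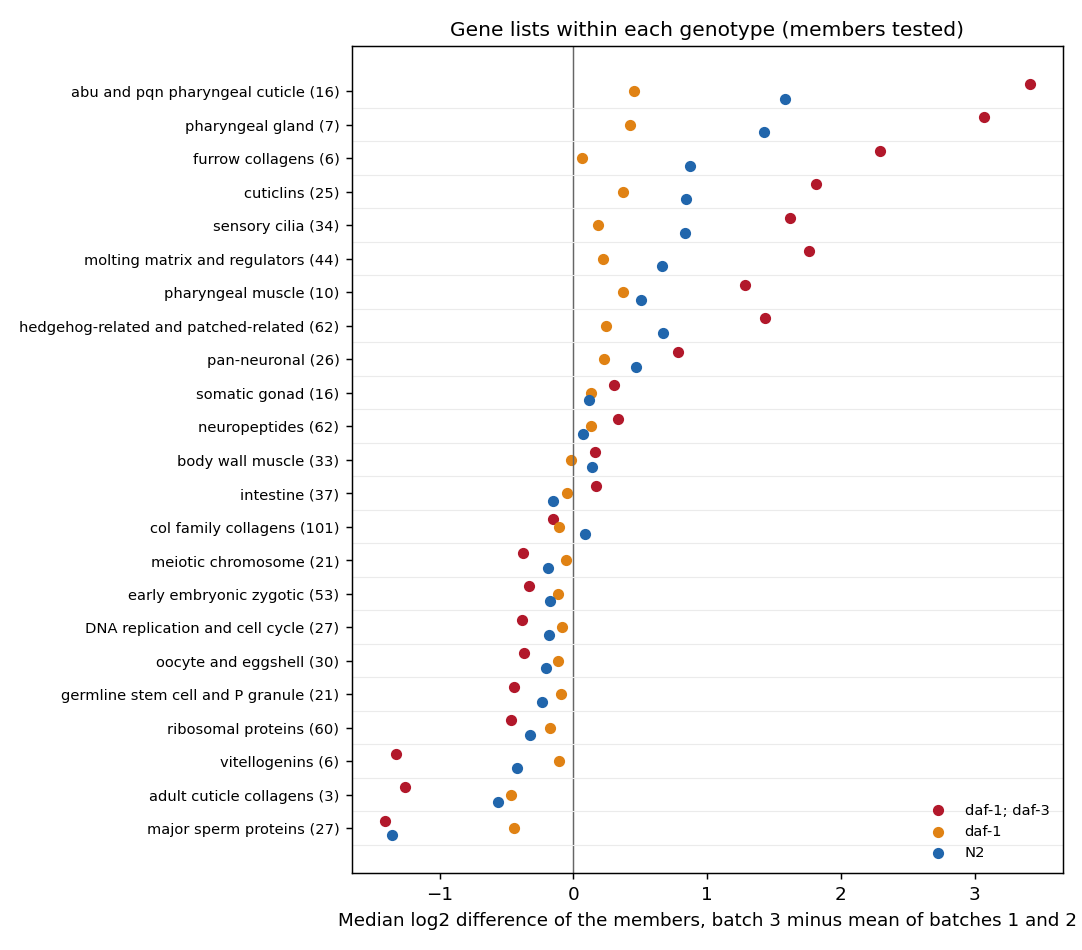
Median log2 difference between batch 3 and the mean of batches 1 and 2 over the tested members of 23 gene lists (number of members in brackets), within *daf-1*; *daf-3* (red), *daf-1* (orange) and N2 (blue). Lists of furrow collagens, cuticlins, molting matrix, pharynx and cilia lie right of 0 in the 3 genotypes, with the *daf-1*; *daf-3* point farthest out. Lists of germline, ribosome, yolk and adult collagens lie left of 0. The col family list lies on both sides, at −0.155 in *daf-1*; *daf-3*, −0.105 in *daf-1* and 0.089 in N2.

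Germline genes were slightly lower in batch 3, on the scale of the deposited values. Of 21 genes of germline stem cells and P granules, 18 were lowest and 0 highest in batch 3 in all 3 genotypes, against 17.7% and 17.4% of all entries. Their median log2 difference was −0.25, with −0.45 in *daf-1*; *daf-3*, −0.09 in *daf-1* and −0.24 in N2, and −0.16 without the *daf-1*; *daf-3* library of batch 3. With equal FPKM totals the median was −0.11, beside 0.10 over all entries. At that scaling 2 members were lowest in all 3 genotypes, beside 3.79% of all entries. With quantile normalization 7 members were lowest and 0 highest, with a median of −0.12. Of all entries 17.3% were then lowest, with a median of −0.07. *gld-1* (I: 7695681 to 7698222), a translational repressor of the meiotic germline, was at 528 FPKM in batch 3 against 783 and 773 FPKM in batches 1 and 2 of *daf-1*; *daf-3*. The values in *daf-1* were 495 FPKM in batch 3 against 524 and 552 FPKM, and those of N2 were 596 against 723 and 749.6 FPKM. *glh-1* (I: 6854478 to 6857536), a Vasa-like helicase of P granules, was at 90.5 FPKM in batch 3 against 138 and 156 FPKM in batches 1 and 2 of *daf-1*; *daf-3*, 100.5 against 109 and 111 FPKM in *daf-1*, and 130.0 against 186 and 164 FPKM in N2. Both lie below the other libraries of their genotype in batch 3 by under 2-fold.

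The other lists of dividing and maturing germ cells gave small differences of the same sign. Meiotic chromosome genes had 7 lowest and 0 highest of 21 (median −0.20), oocyte and eggshell genes 21 and 0 of 30 (median −0.23), and genes of DNA replication and the cell cycle 18 and 0 of 27 (median −0.22). Without the *daf-1*; *daf-3* library of batch 3 these medians were −0.12, −0.15 and −0.14, and 7, 21 and 21 members were lowest in *daf-1* and N2. With equal FPKM totals 1, 5 and 1 of these members were lowest in all 3 genotypes, beside 3.79% of all entries at that scaling. With quantile normalization 7, 6 and 4 were lowest, with medians of −0.17, −0.09 and −0.10, and 2 oocyte and eggshell genes were highest. Of all entries 17.3% were then lowest, with a median of −0.07. Within *daf-1*; *daf-3*, 0 members of these lists rose or fell. *spn-4*, a maternal RNA-binding protein, was at 615 FPKM in batch 3 against 1041 and 849 FPKM in batches 1 and 2 of *daf-1*; *daf-3*, 584 against 668 and 650.1 FPKM in *daf-1*, and 789 against 892 and 972 FPKM in N2, lowest in batch 3 in each genotype. Genes that early embryos switch on had 12 lowest and 1 highest of 53 with a median of −0.20 (−0.13 without that library, with 3 highest), and histones 7 and 1 of 39 with a median of −0.02 (−0.01 without it, and 0.13 with equal FPKM totals). On the deposited scale the share that was lowest lies near the 17.7% of all entries in both lists. With quantile normalization 24 of the 53 early embryonic genes were lowest and 1 highest, with a median of −0.36. At that setting 7 histones were lowest, with a median of −0.23, beside 17.3% of all entries. With equal FPKM totals 2 early embryonic genes were lowest and 3 highest, beside 3.79% of all entries lowest. *end-1* (V: 13985128 to 13987074), a GATA factor of the embryonic endoderm, was at 4.31 FPKM in batch 3 against 6.67 and 5.4 FPKM in batches 1 and 2 of *daf-1*; *daf-3*, 2.09 against 3.56 and 3 FPKM in *daf-1*, and 4.44 against 6.55 and 5.85 FPKM in N2.

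Levels of sperm transcripts lay far apart in batches 1 and 2 of *daf-1*; *daf-3* too. The summed level of 27 major sperm proteins, which are made in developing sperm and are alike enough in sequence that reads could be split between them, was 9.19 FPKM in batch 3 of *daf-1*; *daf-3*, against 4.32 and 157.7 FPKM in batches 1 and 2. It was 116 against 151 and 164 FPKM in *daf-1*, and 8.46 against 46.2 and 26.5 FPKM in N2. Batch 1 of *daf-1*; *daf-3* was thus lower still than its batch 3, and the sides overlap in that genotype. Of the 27 genes 4 were lowest and 0 highest in batch 3 in all 3 genotypes. In *daf-1* and N2 alone 22 were lowest, beside 22.6% of all entries. Within any genotype 0 rose or fell. The median difference was −1.12 (−0.91 without the *daf-1*; *daf-3* library of batch 3), and the median of batch 2 minus batch 1 was 3.75 in *daf-1*; *daf-3*, 0.06 in *daf-1* and −0.55 in N2. Other sperm genes had 4 lowest and 1 highest of 42 with a median of −0.20. Without the *daf-1*; *daf-3* library of batch 3 they had 10 lowest and a median of −0.13. The adult collagens also had batch 2 above batch 1 in *daf-1*; *daf-3*, by a median of 2.37. None of these members passed the test of batch 2 against batch 1.

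Yolk genes were lower in batch 3. Of the 6 vitellogenins 5 were lowest and 0 highest in all 3 genotypes, 0 rose and 3 fell within *daf-1*; *daf-3*, and the median was −0.63, with −1.33 in *daf-1*; *daf-3*, −0.10 in *daf-1* and −0.43 in N2. Without the *daf-1*; *daf-3* library of batch 3 it was −0.27, and with equal FPKM totals −0.48. *vit-1* (X: 7727889 to 7733168) was at 132 FPKM in batch 3 against 507 and 1080.2 FPKM in batches 1 and 2 of *daf-1*; *daf-3*. For *daf-1* it was 385 FPKM in batch 3 against 606 and 575 FPKM, and in N2 it was 342 against 729 and 532 FPKM. *vit-3* (X: 3567355 to 3572549) was at 167 FPKM in batch 3 against 558 and 603 FPKM in batches 1 and 2 of *daf-1*; *daf-3*, 452 against 569 and 587 FPKM in *daf-1*, and 509 against 733 and 709.6 FPKM in N2. *vit-2* (X: 5101042 to 5106169), the most abundant transcript of the family in N2 batch 3, was at 6019.8 FPKM in batch 3 against 5941 and 6179.6 FPKM in batches 1 and 2 of *daf-1*; *daf-3*, 4892 against 4936 and 5066 FPKM in *daf-1*, and 4617 against 5689.8 and 5021 FPKM in N2, where the sides overlap in *daf-1*; *daf-3*. *vit-3*, *vit-4* and *vit-5* are near-identical, so reads could be split between them. The intestine as a whole, where yolk is made, had 3 highest and 5 lowest of 37 and a median of −0.09 (−0.08 without the *daf-1*; *daf-3* library of batch 3, with 9 lowest, and 0.06 with equal FPKM totals), and 5 rose and 1 fell within *daf-1*; *daf-3*. *fat-7* (V: 7151353 to 7153146), a stearoyl-CoA desaturase of the intestine, was at 6.13 FPKM in batch 3 against 16.9 and 13.3 FPKM in batches 1 and 2 of *daf-1*; *daf-3*, 7.58 against 14.9 and 14.4 FPKM in *daf-1*, and 17.1 against 29.5 and 26.9 FPKM in N2, lowest in batch 3 in each genotype.

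Ribosomal protein genes were lower in batch 3 on the deposited scale. Of 60 tested, 55 were lowest and 0 highest in batch 3 in all 3 genotypes, and the median was −0.32, with −0.46 in *daf-1*; *daf-3*, −0.17 in *daf-1* and −0.33 in N2, and −0.25 without the *daf-1*; *daf-3* library of batch 3. With equal FPKM totals 22 were lowest, beside 3.79% of all entries at that scaling, and the median was −0.17. Quantile normalization gave a median of −0.02. *rpl-22* (II: 5055616 to 5056214) was at 288 FPKM in batch 3 against 499 and 495 FPKM in batches 1 and 2 of *daf-1*; *daf-3*. *daf-1* had values of 287 FPKM in batch 3 against 335 and 352 FPKM, and those of N2 were 295 against 389 and 383 FPKM. Its 3 batch 3 values are nearly equal, below all 6 others. Respiratory chain genes had 8 lowest and 0 highest of 12 with a median of −0.22 (−0.20 without that library). The 11 lists of germline, embryo and housekeeping genes all had a median below 0 in each of the 3 genotypes as deposited.

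Stress and defence genes had no common direction. C-type lectins had 12 highest and 12 lowest of 98 (median −0.05), F-box and MATH-BTB genes 15 and 22 of 269 (−0.05), detoxification genes 11 and 26 of 119 (−0.16), and lysozymes and saposins 4 and 6 of 28 (0.19). Lipid storage and breakdown genes had 1 highest and 8 lowest of 28 (median −0.05), dod and CUB-like genes 1 and 2 of 10 (−0.17), insulin-like peptides 1 and 2 of 28 (0.11), and metal and oxidative stress genes 1 and 1 of 15 (−0.12). Cytosolic heat shock genes had 0 highest and 2 lowest of 13 (median −0.21), mitochondrial stress genes 0 and 6 of 7 (−0.17), and genes of the DAF-7 pathway 1 and 0 of 6 (0.07). Without the *daf-1*; *daf-3* library of batch 3 the medians were −0.07 for C-type lectins, 0.00 for F-box and MATH-BTB genes, −0.04 for detoxification and 0.01 for lysozymes and saposins. They were −0.11 for lipid genes, 0.08 for dod and CUB-like genes, 0.11 for insulin-like peptides and −0.09 for metal and oxidative stress. Those of the other lists were −0.15 for heat shock, −0.11 for mitochondrial stress and 0.13 for the DAF-7 pathway. Members lowest in *daf-1* and N2 then numbered 18 of the C-type lectins, 12 of the lipid genes and 3 of the metal and oxidative stress genes. Members highest in both numbered 29 of the F-box and MATH-BTB genes, 18 of the detoxification genes, 3 of the insulin-like peptides and 3 of the DAF-7 pathway. With equal FPKM totals the medians of C-type lectins, F-box and MATH-BTB genes, lipid genes and metal and oxidative stress genes were above 0 (0.07, 0.08, 0.09 and 0.03). With quantile normalization those of insulin-like peptides and the DAF-7 pathway were below 0 (−0.04 and −0.06). Epidermal antimicrobial peptides had 8 highest and 2 lowest of 41 (median 0.33 with and without that library), and *nlp-29* (V: 3984425 to 3984847), which is induced by fungal infection and wounding, was at 123 FPKM in batch 3 against 92.4 and 54.7 FPKM in batches 1 and 2 of *daf-1*; *daf-3*, 88.7 against 42.5 and 47.7 FPKM in *daf-1*, and 21.9 against 11.2 and 12.9 FPKM in N2. Its gap was about the same size in the 3 genotypes, at 0.79, 0.97 and 0.85 on the log2 scale in *daf-1*; *daf-3*, *daf-1* and N2.

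Several genes had their most extreme value of the 9 in the *daf-1*; *daf-3* library of batch 3. *cpr-2* (V: 16532936 to 16534100), a cathepsin B-like protease, was at 78.4 FPKM in batch 3 against 0.0793 and 0.18 FPKM in batches 1 and 2 of *daf-1*; *daf-3*. In *daf-1* it was at 0.153 FPKM in batch 3 against 0.231 and 0.301 FPKM, and in N2 it was 0.312 against 0.19 and 0.528 FPKM. *mtl-1* (V: 6691371 to 6691863), a metallothionein, was at 357 FPKM in batch 3 against 27.3 and 13.9 FPKM in batches 1 and 2 of *daf-1*; *daf-3*, 76.6 against 93.7 and 58.4 FPKM in *daf-1*, and 57.6 against 33.4 and 31 FPKM in N2. *fbxa-24* (II: 3816526 to 3818238), an F-box gene, was at 25.3 FPKM in batch 3 against 2.52 and 3.29 FPKM in batches 1 and 2 of *daf-1*; *daf-3*. The *daf-1* values were 4.44 FPKM in batch 3 against 2.08 and 1.73 FPKM, and those of N2 were 2.64 against 1.72 and 2.27 FPKM. *pud-3* (V: 2324634 to 2325152) was low there, with 13.8 FPKM in batch 3 against 134 and 110.1 FPKM in batches 1 and 2 of *daf-1*; *daf-3*, 1003 against 1236 and 1154 FPKM in *daf-1*, and 322 against 515 and 466 FPKM in N2. In *daf-1*; *daf-3* the log2 differences were 7.71 for *cpr-2*, 4.17 for *mtl-1*, 3.03 for *fbxa-24* and −3.12 for *pud-3* (adjusted p = 0.00422, 0.00496, 0.00462 and 0.00422 for the same genes). The interaction of genotype and batch 3 had an adjusted p of 0.0526 for *cpr-2*, 0.121 for *mtl-1*, 0.123 for *fbxa-24* and 0.0503 for *pud-3*, so a difference between genotypes was not called for them.

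Among the genes of smallest p with a mean difference of at least 2-fold and batch 3 at the same extreme in each genotype are several whose role is not given here. EGAP4.1 (X: 8726794 to 8727406) was at 8.22 FPKM in batch 3 against 1.34 and 1.62 FPKM in batches 1 and 2 of *daf-1*; *daf-3*. Its level in *daf-1* was 9.15 FPKM in batch 3 against 3.36 and 4.19 FPKM, and in N2 it was 6.36 against 1.79 and 2.54 FPKM. C05E7.1 (X: 12941442 to 12943266) was at 6.78 FPKM in batch 3 against 0.486 and 0.734 FPKM in batches 1 and 2 of *daf-1*; *daf-3*, 6.61 against 2.52 and 3.69 FPKM in *daf-1*, and 5.2 against 1.31 and 1.75 FPKM in N2. *bus-4* (IV: 4688269 to 4691936), a glycosyltransferase of the cuticle surface, was at 7.13 FPKM in batch 3 against 0.732 and 0.83 FPKM in batches 1 and 2 of *daf-1*; *daf-3*. The values in *daf-1* were 7.71 FPKM in batch 3 against 3.74 and 4.28 FPKM, and those of N2 were 6.86 against 2.23 and 2.55 FPKM. In each of them batch 3 was the highest library of its genotype, and the adjusted p was 0.0735. *linc-7* (X: 16002599 to 16003728), a long non-coding RNA, was the lowest in batch 3 of each genotype, with 2.17 FPKM in batch 3 against 9.77 and 9.09 FPKM in batches 1 and 2 of *daf-1*; *daf-3*, 3.91 against 6.18 and 6.59 FPKM in *daf-1*, and 3.7 against 7.71 and 8.99 FPKM in N2, a log2 difference of −1.26 ± 0.22 (SE) and an adjusted p of 0.0735. *ilys-5*, a lysozyme-like gene, was lowest too, with 259 FPKM in batch 3 against 791 and 547 FPKM in batches 1 and 2 of *daf-1*; *daf-3*, 60.2 against 194 and 84.4 FPKM in *daf-1*, and 813 against 1330.0 and 1128 FPKM in N2.

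The order of the genotypes inside a batch was not the same in batch 3. Between *daf-1*; *daf-3* and *daf-1*, 1408 entries (10.1%) differed at least 2-fold in batch 3, against 2786 (20%) in batch 1 and 2118 (15.2%) in batch 2. Between *daf-1* and N2 these counts were 1613 (11.6%) in batch 3, 1990 (14.3%) in batch 1 and 2106 (15.1%) in batch 2. The *daf-1*; *daf-3* library of batch 3 had a root mean square log2 distance of 0.801 from *daf-1* and 0.83 from N2 of batch 3, and of 1.15 and 1.1 from batches 1 and 2 of its own genotype, while batches 1 and 2 of *daf-1*; *daf-3* lay 0.774 apart. In *daf-1* the 3 libraries lay 0.598 to 0.629 apart. Each value here compares 1 library with 1, so none carries a test.

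The lists show where this lay. The median of molting genes in *daf-1*; *daf-3* minus *daf-1* was 0.21 in batch 3, against −1.24 in batch 1 and −1.08 in batch 2. For cuticlins it was 0.17 in batch 3, against −1.51 and −1.32, for sensory cilia 0.24 against −1.38 and −0.96, and for the abu and pqn genes 0.04 against −2.87 and −2.74. In *daf-1* minus N2 the molting median was −0.14 in batch 3, against 0.42 and 0.46, that of cuticlins 0.00 against 0.57 and 0.41, and that of the abu and pqn genes 0.87 against 1.87 and 1.38. Germline stem cell genes kept their sign in *daf-1*; *daf-3* minus *daf-1*, with 0.07 in batch 3 against 0.45 and 0.38. The 6 genes that the study picked for qPCR from these samples, *abu-8*, *abu-11*, *pqn-74*, *clec-61*, *math-38* and *sodh-1*, rose within *daf-1*; *daf-3*. The study picked them after removing the *daf-1*; *daf-3* library of batch 3, among genes higher in *daf-1* than in *daf-1*; *daf-3* and N2. Low values in batches 1 and 2 of *daf-1*; *daf-3* favoured this choice, so the direction of these genes is not independent. The study's qPCR on the sequenced RNA of batch 3 found all 6 higher in *daf-1*. In *sodh-1*, *pqn-74* and *abu-8* it found no matching drop in *daf-1*; *daf-3*. *clec-61*, a C-type lectin, was at 1.87 FPKM in batch 3 against 0.0617 and 0.28 FPKM in batches 1 and 2 of *daf-1*; *daf-3*, 13.1 against 16.3 and 10.2 FPKM in *daf-1*, and 2.8 against 4.74 and 2.61 FPKM in N2. *math-38*, a MATH-domain gene, was at 3.5 FPKM in batch 3 against 0.636 and 0.39 FPKM in batches 1 and 2 of *daf-1*; *daf-3*, 8.6 against 8.94 and 7.65 FPKM in *daf-1*, and 0.606 against 1.78 and 0.65 FPKM in N2, and *sodh-1*, an alcohol dehydrogenase, at 100.4 FPKM in batch 3 against 29.1 and 21.7 FPKM in batches 1 and 2 of *daf-1*; *daf-3*. For *daf-1* it was 54.5 FPKM in batch 3 against 72.3 and 52.2 FPKM, and in N2 it was 33.6 against 32 and 21.2 FPKM. In *clec-61* and *math-38* the batch 3 gap had the opposite sign without the *daf-1*; *daf-3* library of batch 3, at −0.14 and −0.30 on the log2 scale.

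**Figure D4:**
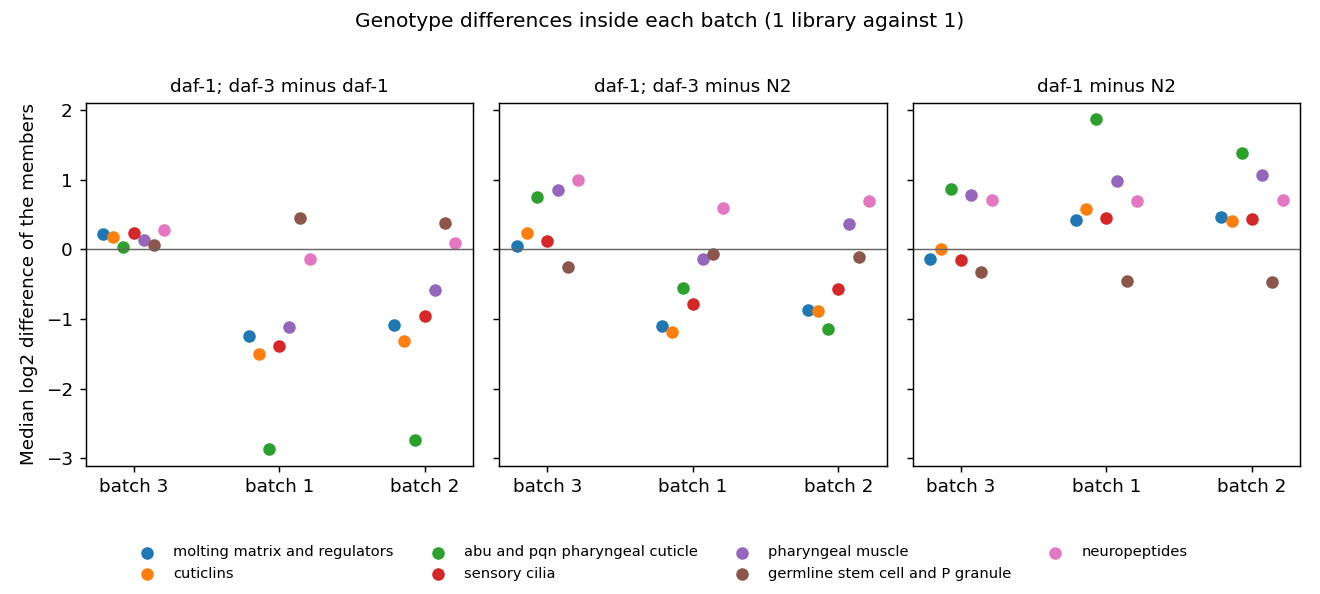
Median log2 difference between genotypes inside each batch over the members of 7 gene lists, 1 library against 1, for *daf-1*; *daf-3* minus *daf-1* (left), *daf-1*; *daf-3* minus N2 (middle) and *daf-1* minus N2 (right). In the left panel the cuticle, pharynx and cilia lists lie between 0.04 and 0.24 in batch 3 and between −2.87 and −0.58 in batches 1 and 2.

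The difference was also described by chromosome, which the comparison did not use, and by level, which is the mean of the same FPKM values and is no independent measure. Over 1965 entries on the X chromosome the median difference was 0.16, with 0.27 in *daf-1*; *daf-3*, 0.03 in *daf-1* and 0.14 in N2, and 27% were highest and 9.26% lowest in all 3 genotypes. The autosomes had medians between −0.08 and 0.02. The X median was 0.09 without the *daf-1*; *daf-3* library of batch 3, 0.02 with quantile normalization and 0.05 among entries with a mean of at least 5 FPKM. By mean level, 54.6% of 1528 entries over 100 FPKM were lowest in batch 3 in all 3 genotypes and 2.29% highest, and their median was −0.20. Of entries between 1 and 5 FPKM, 28.1% were highest, with a median of 0.19. Germline and ribosomal genes are among the highly expressed ones, and the part of level, of the FPKM totals and of the outlying library in the list results was not tested.

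**Figure D5:**
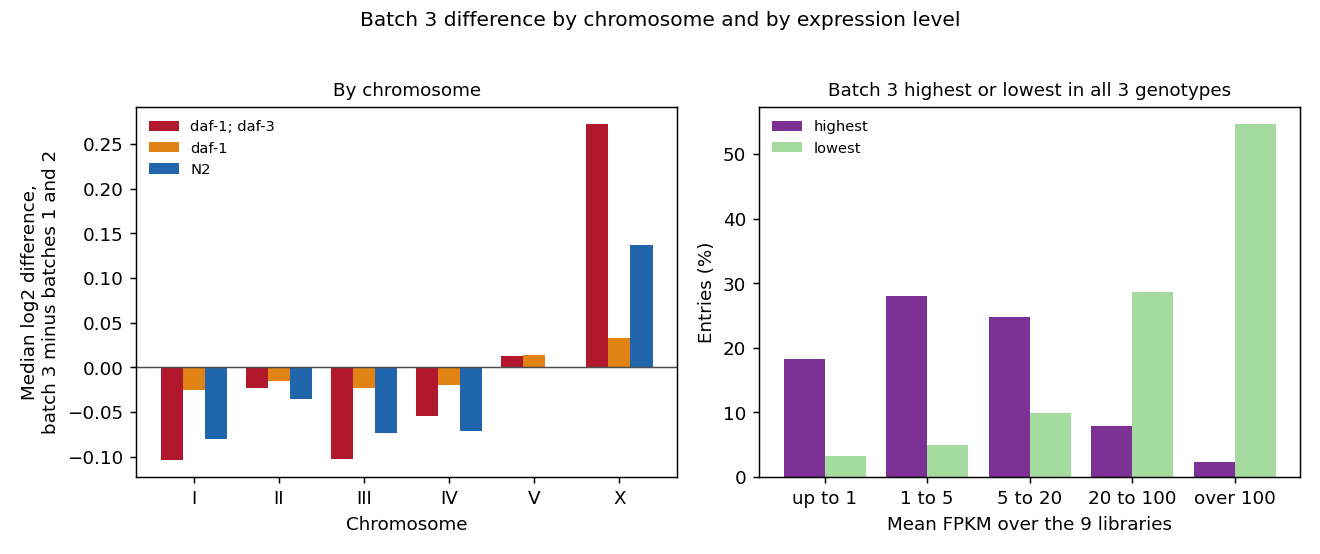
Left, median log2 difference between batch 3 and the mean of batches 1 and 2 by chromosome within *daf-1*; *daf-3* (red), *daf-1* (orange) and N2 (blue), where X reaches 0.27, 0.03 and 0.14. Right, percent of entries in which batch 3 was highest (purple) or lowest (green) in all 3 genotypes, by mean FPKM, with 54.6% lowest above 100 FPKM.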

How the data were processed

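RNA-seq libraries of 3 genotypes in 3 batches were used. The authors used bcl2fastq 1.8.4 for demultiplexing, Trim Galore 0.4.0 for trimming and TopHat2 2.0.12 for alignment to WBcel235 under the Ensembl 76 annotation, and they deposited FPKM values from Cufflinks (2.21 in the submitters' processing notes), neither logged nor counted. No column belonged to another sample. Here, log2(FPKM + 0.25) of 13907 entries was fitted with limma 3.58.1 in R 4.3.3 (trended moderation, Benjamini-Hochberg over all entries), with batch 3 and genotype (5 residual degrees of freedom) or their interaction (3) as terms. Figures used matplotlib 3.10.9. The tests were checked on simulated data. FPKM holds no depth, so no counting error was computed. Whether replicates were separate cultures is not stated beyond their name, so p-values measure the spread between these samples.

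Gene lists (46) and the comparison were chosen with earlier results of these data known. Genes named are up to 12 higher and 12 lower of smallest p at 2-fold or more, 5 FPKM or more and the same direction in each genotype, up to 5 per list and 2 per list and genotype, the genes of smallest p within a genotype and in the interaction, *daf-1*, *daf-3*, the qPCR genes and defining markers. The 2 DEGs, T21H3.7 and T14B4.14, lie under the 5 FPKM of this rule and are named because they were called. F23D12.1 and *lgc-9* are named only as border entries of the filter. Y53H1C.11 and T21B4.21 also fall outside this rule and were chosen after their values were seen. Positions were read from the Ensembl 115 annotation of the same assembly, matched for 98.91% of the 12044 entries with 1 name. Other pseudocounts, filters, scalings, fits and left-out libraries were tried. A planned description of promoters was not made.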

Additional observations from a re-analysis of the deposited data

Results flagged for a closer look

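Of 51 measures checked, 3 had 1 library apart from the others beyond Dixon's 95% limit. Chance passes this limit in about 1 of 20 groups. Library measures were compared over the 9 libraries. The scores of the lists were compared over the 6 libraries of batches 1 and 2 only, so those of batch 3 were not checked. The 10 highest entries of *daf-1*; *daf-3* batch 3 held 10.7% of its FPKM total. Entries that name no gene held 0.257% of the total of *daf-1* batch 2. The mean log2 level of the respiratory chain genes in *daf-1*; *daf-3* batch 2 lay 0.238 above their mean over the 9 libraries.

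For 6 entries the batch 3 difference differed between genotypes in limma's interaction test. All are short RNAs of 94 to 146 bases and several are listed at 0 in some libraries, so each is given by its values. B0213.24 (adjusted p = 0.0005617) was at 60.3 FPKM in batch 3 against 0 and 0 FPKM in batches 1 and 2 of *daf-1*; *daf-3*, 30.04 against 0 and 0 FPKM in *daf-1*, and 0 against 38.9 and 32.7 FPKM in N2. F58D5.10 (adjusted p = 0.01546) was at 0 FPKM in batch 3 against 0 and 0 FPKM in batches 1 and 2 of *daf-1*; *daf-3*. *daf-1* had values of 58.9 FPKM in batch 3 against 0 and 0 FPKM, and those of N2 were 62.1 against 0 and 0 FPKM. F58D5.10 reached the FPKM minimum only in batch 3, so it entered the test through the side where it is high. H40L08.4 (adjusted p = 0.01546) was at 6.75 FPKM in batch 3 against 0 and 0 FPKM in batches 1 and 2 of *daf-1*; *daf-3*, 0 against 3.08 and 3.06 FPKM in *daf-1*, and 2.52 against 0 and 0 FPKM in N2. Log2 differences of these entries depend on the pseudocount and are no bounds. F44E5.16 (adjusted p = 0.01546) was at 21.6 FPKM in batch 3 against 22.8 and 19.8 FPKM in batches 1 and 2 of *daf-1*; *daf-3*. In *daf-1* it was at 16.5 FPKM in batch 3 against 9.4 and 9.34 FPKM, and in N2 it was 0 against 5.07 and 4.48 FPKM. C01B10.46 (adjusted p = 0.01955) was at 90.4 FPKM in batch 3 against 76.6 and 92.8 FPKM in batches 1 and 2 of *daf-1*; *daf-3*, 41.7 against 0 and 0 FPKM in *daf-1*, and 87.6 against 54.2 and 91 FPKM in N2. JC8.15 (adjusted p = 0.02388) was at 0 FPKM in batch 3 against 10.4 and 7.99 FPKM in batches 1 and 2 of *daf-1*; *daf-3*. The *daf-1* values were 2.65 FPKM in batch 3 against 0 and 0 FPKM, and those of N2 were 0 against 0 and 0 FPKM. Of the 6, each overlaps another annotated gene except F44E5.16.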

How the results depend on the processing

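No paired analysis was possible because the replicate number is the batch, which is the comparison itself. Scaling to equal FPKM totals, the looser adjusted p and the counts of entries outside both other libraries were chosen after seeing the data. The 2 DEGs of batch 3 against batches 1 and 2 became 893 at an adjusted p below 0.1, 862 with equal FPKM totals and 0 at a mean of at least 5 FPKM, and 2 to 1225 when each library was left out in turn (1225 without *daf-1* replicate 3, 7 without *daf-1*; *daf-3* replicate 3, 5 without N2 replicate 3). The 1949 DEGs within *daf-1*; *daf-3* became 938 at a mean of at least 5 FPKM and 3072 with no minimum fold, and 1063 to 2117 with a library left out (1065 without *daf-1* replicate 1, 1063 without *daf-1* replicate 2). Without *daf-1*; *daf-3* replicate 3 they cannot be computed. The 11 within *daf-1* became 4 at a pseudocount of 0.1, 124 without a filter and 7 with quantile normalization, and 0 to 12 with a library left out. The 10 within N2 became 19 at a pseudocount of 1, 3 at 0.1 and 128 without a filter, and 0 to 12 with a library left out. The 6 interactions became 27 at a pseudocount of 1, 524 without a filter, 32 at a mean of at least 5 FPKM, 13 with quantile normalization, 11 with upper-quartile scaling, 90 with robust moderation and 14 with equal FPKM totals, and 0 to 108 with a library left out (108 without N2 replicate 3). They need no minimum fold. The 1 DEG of batch 2 against batch 1 became 0 with robust moderation and 0 to 5 with a library left out. Entries with batch 3 above both other libraries in every genotype numbered 1076 (12.9%) of those at a mean of at least 5 FPKM, where 2219 (26.5%) lay below both. With equal FPKM totals 3788 (27.2%) lay above both and 527 (3.79%) below both. The other alternatives left these counts within 1.5 times. The cause of these changes was not tested.

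List medians of at least 0.1 in size that changed sign became 1.18 for body-shape collagens, −0.18 for astacin proteases and −0.03 for lysozymes and saposins at a mean of at least 5 FPKM, where fewer members are tested. They became −0.037 for astacin proteases, 0.046 for the ER unfolded protein response and −0.038 for insulin-like peptides with quantile normalization, 0.041 for the ER unfolded protein response and 0.026 for metal and oxidative stress with equal FPKM totals, and 0.08 for dod and CUB-like genes without *daf-1*; *daf-3* replicate 3. Medians nearer 0 that changed sign with equal FPKM totals were those of col genes (0.055), the intestine (0.057), histones (0.128), C-type lectins (0.067), F-box and MATH-BTB genes (0.081) and lipid genes (0.091). With upper-quartile scaling those of histones (0.041), F-box and MATH-BTB genes (0.005) and lipid genes (0.005) did, with quantile normalization that of the DAF-7 pathway (−0.063), and without *daf-1*; *daf-3* replicate 3 that of col genes (0.006). Single genes that changed sign with quantile normalization were *car-1* (0.011), *erm-1* (0.032), *pdi-3* (0.0053), *prdx-2* (0.031), *daf-14* (−0.085) and *daf-3* (−0.040). With equal FPKM totals they were *hsf-1* (0.026), *timm-23* (0.026) and *daf-1* (0.10), which was also at 0.016 with upper-quartile scaling. Without *daf-1*; *daf-3* replicate 3 they were *clec-61* (−0.14), *cpr-2* (−0.20) and *math-38* (−0.30), and B0213.24 (−0.12), H40L08.4 (−0.13) and JC8.15 (1.77), which are listed at 0 in several libraries, so that the pseudocount sets these 3 values and they are no bounds. For named genes, 1243 of the values under an alternative kept their direction and call, 86 passed the threshold under it and 16 changed sign.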
